A study of Mus musculus with 12 samples.

Results

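The collagen chain genes of the mouse retina are the protein-coding genes in the deposited table whose whole symbol is Col, a number, the letter a and a number, such as Col24a1. The rule uses no measured value and found 44 genes among the 56748 of the table. RNA was measured in whole retinas in 4 groups of 3 mice, with 1 retina from a separate mouse behind each library: JR5558 at 4 weeks, C57BL/6J at 4 weeks, JR5558 at 8 weeks and C57BL/6J at 8 weeks. JR5558 is an inbred mouse line that forms subretinal new vessels without treatment, and is known to be homozygous for rd8, a Crb1 allele, with a further allele at Jak3. C57BL/6J is the wild-type control line, no agent was given to either, and the labels name no sex. The study's title concerns subretinal scarring in wet macular degeneration and the enzyme that hydroxylates prolines of collagen, so the collagen genes are the substrate side of its question.

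A collagen molecule is a triple helix of 3 chains, which come from 1 gene in some types and from different genes in others. Hydroxylation of prolines keeps the helix stable at body temperature, and hydroxylation of lysines serves the attachment of sugars and crosslinking. Fibrillar chains build banded fibrils, fibril-associated chains (FACIT) decorate them, type IV chains form the sheet of basement membranes, and other chains form beaded filaments, hexagonal nets or membrane-spanning proteins. In the eye, types II, IX and XI make up the fibrils of the vitreous, while type IV with type XVIII lies in the inner limiting membrane, in vessel walls and in Bruch's membrane under the pigment epithelium.

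The start regions of 3 members with differences described below are given here, and no level was tested against these sequences. Col24a1 showed the strain difference that was called at both ages, and Col4a1 and Col4a2 are head-to-head neighbours whose start sites are 21 bases apart on chromosome 8. The sequences are RefSeq promoter windows of 300 bases on GRCm38.p6, from 250 bases before to 50 bases after the start of transcription, 5′ to 3′ on the strand of the gene. Capitals mark matches to 2 letter strings on either strand, CCAAT (the CCAAT box, ATTGG in reverse) and GGGCGG (the GC box, CCGCCC in reverse), and these matches do not overlap in the windows shown. Col4a1 lies at chr8:11312777-11313076 on the minus strand, Col4a2 at chr8:11312555-11312854 on the plus strand and Col24a1 at chr3:145292222-145292521 on the plus strand.
Col4a1: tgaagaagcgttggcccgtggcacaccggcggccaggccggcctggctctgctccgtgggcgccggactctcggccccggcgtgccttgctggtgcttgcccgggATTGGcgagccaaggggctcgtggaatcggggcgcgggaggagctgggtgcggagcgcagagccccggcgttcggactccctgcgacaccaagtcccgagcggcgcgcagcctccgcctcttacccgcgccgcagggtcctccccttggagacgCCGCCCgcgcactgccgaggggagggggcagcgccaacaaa
Col4a2: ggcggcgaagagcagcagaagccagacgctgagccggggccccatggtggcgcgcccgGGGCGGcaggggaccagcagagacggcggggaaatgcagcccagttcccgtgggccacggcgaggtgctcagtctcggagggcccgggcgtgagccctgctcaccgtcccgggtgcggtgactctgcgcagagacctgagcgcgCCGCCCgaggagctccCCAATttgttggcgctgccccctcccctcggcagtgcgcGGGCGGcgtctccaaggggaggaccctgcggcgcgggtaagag
Col24a1: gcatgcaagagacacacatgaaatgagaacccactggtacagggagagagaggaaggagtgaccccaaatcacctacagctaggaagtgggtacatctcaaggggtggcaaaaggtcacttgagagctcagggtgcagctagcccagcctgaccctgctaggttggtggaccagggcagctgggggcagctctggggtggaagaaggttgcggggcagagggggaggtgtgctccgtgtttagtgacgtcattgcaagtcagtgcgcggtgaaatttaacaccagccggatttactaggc

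The Col4a1 and Col4a2 windows share 78 bases, and the GC box downstream of the start in both is the same site read on opposite strands. Col4a1 held 1 CCAAT box and 1 GC box, and Col4a2 held 1 CCAAT box and 3 GC boxes. Col24a1 held neither of these. It also lacked TATAAA, the TATA box, searched on both strands. The AP-1 string TGANTCA, searched likewise, was not in its window either. RefSeq windows were found for 35 of the 44 members, 38 windows in all, and 60.5% of them held a GC box against 35.7% of all 32851 windows. CCAAT stood in 34.2% of the member windows and 37.4% of all, the TATA box in 13.2% and 13.6%, and the AP-1 string in 2.63% and 7.81%. A match of letters is a description of the sequence and no evidence of binding.

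Library totals ran from 18029611 to 23739886 counts, and log2 CPM correlated at 0.970 to 0.990 within groups and 0.954 to 0.986 between groups. CPM here means counts per 1000000 after scaling by TMM, edgeR's normalization for composition. The 9 retina markers (photoreceptor, bipolar and Müller glia genes) summed to 52750 to 64135 CPM, so the libraries are retina as labelled. The 3 JR5558 libraries of 4 weeks held 0 to 5 counts of Xist and 1323 to 1846 of the Y-linked Ddx3y, and the other 9 held 7772 to 22988 of Xist and 0 of Ddx3y. Sex therefore cannot be told apart from strain at 4 weeks, from age in JR5558, or from the difference of the strain effects between ages. Of 15 pigment epithelium markers, 11 passed as higher in JR5558 at 4 weeks and 3 at 8 weeks, against 3.27% and 2.54% of all genes. Their log2 fold changes lay above 0 for 14 markers at 4 weeks and 15 at 8 weeks, with medians of 1.25 and 1.06. JR5558 stood above C57BL/6J without overlap in 10 and 13 of them, against 10.1% and 14.9% of all genes. The sums were 449 to 635 CPM in JR5558 against 162 to 306 in C57BL/6J at 4 weeks, and 534 to 703 in JR5558 against 235 to 375 in C57BL/6J at 8 weeks. In this bulk tissue, fewer cells of a type and less RNA per cell cannot be told apart.

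All 44 members had counts, and 41 passed the filter on low counts and were tested. Col10a1, Col28a1 and Col6a5 were not tested, and their mean deposited FPKM (fragments per kilobase of gene and per 1000000 fragments, a level set per gene length) were 0.0717, 0.0371 and 0.0352. Mean FPKM over the 12 libraries was at least 10 for 4 members, from 1 to 10 for 17 and below 1 for 23. The highest were Col6a1 of the beaded filaments (19.7), the membrane-spanning Col23a1 (16.5), Col9a1 of the FACIT class (14.1) and Col18a1, the source of endostatin (12.4). The 10 highest members carried 75.0% of the collagen FPKM. The lowest tested members were Col6a3 (0.0522) and Col14a1 (0.0653), whose values rest on few counts.

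**Figure D1:**
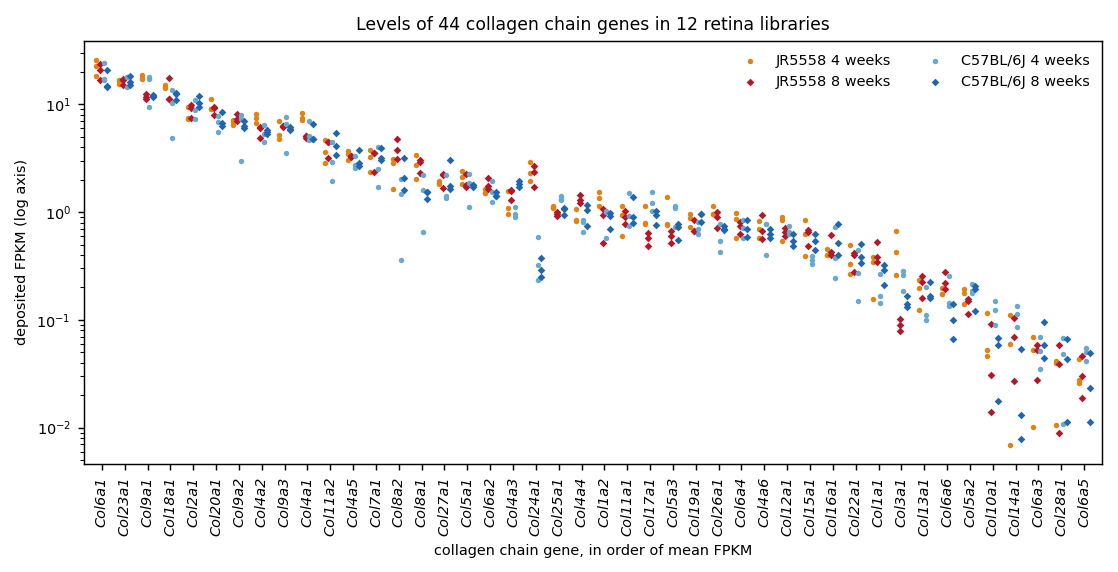
Deposited FPKM (log axis) of each of the 44 collagen chain genes in each of the 12 libraries, in order of the mean, with one mark per library coloured by group. Col6a1 stands first at a mean of 19.7 and Col6a5 last at 0.0352, and at Col24a1 the JR5558 marks (2.38 ± 0.491 and 2.24 ± 0.501 at 4 and 8 weeks) stand apart from the C57BL/6J marks (0.382 ± 0.182 and 0.305 ± 0.0640; mean ± SD, n = 3 each).

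By class, the 9 FACIT chains held 26.8% of the collagen FPKM, the 6 type VI chains 15.97%, the 11 fibrillar chains 15.4%, the 4 transmembrane chains 13.4%, the 6 type IV chains 13.0% and the 2 multiplexin chains 9.26%. The 3 chains of types VIII and X held 3.34% and the 3 others 2.81%. Collagens thus took little of the library in every group: 0.0998% ± 0.00640 of counts in JR5558 and 0.0832% ± 0.0181 in C57BL/6J at 4 weeks, and 0.0923% ± 0.00942 in JR5558 and 0.0846% ± 0.0100 in C57BL/6J at 8 weeks (mean ± SD, n = 3 each). Type I and III chains, the bulk of scar collagen, were low, at a mean FPKM of 0.982 for Col1a2, 0.295 for Col1a1 and 0.233 for Col3a1. The group means of a member, as CPM, spanned a median of 1.42-fold between the highest and the lowest group, with 23 of 41 members below 1.5-fold and 7 at 2-fold or more. The widest spans were those of Col24a1 (7.82-fold), Col3a1 (5.04-fold), Col14a1 (4.49-fold) and Col8a2 (3.03-fold).

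At 4 weeks, 4 of 41 collagen genes passed the threshold (adjusted p below 0.05) as higher in JR5558 and 0 as lower, against 3.27% higher, 2.9% lower and 6.16% in either direction among all 18334 genes tested. They were the fibrillar chain Col24a1, the FACIT chain Col20a1, the type IV chain Col4a2 and Col26a1, a short chain outside the other classes. At an unadjusted p below 0.05 there were 13 members (31.7%), where all genes gave 19.1%. The log2 fold change lay above 0 for 29 members (70.7%) and for 49.8% of all genes, with a median of 0.25 against -0.00 over all genes. In 8 members (19.5%) every JR5558 library stood above every C57BL/6J library, and in 1 (2.44%) below, where all genes gave 10.1% and 9.55%. At 8 weeks Col24a1 alone passed, 1 higher and 0 lower, against 2.54% higher, 2.63% lower and 5.18% either way among all genes. The log2 fold change lay above 0 for 53.7% of members then and for 49.9% of all genes, with a median of 0.04. In 7 members (17.1%) every JR5558 library of 8 weeks stood above every C57BL/6J library and in 3 (7.32%) below, against 14.9% and 15.3% of all genes, and 8 members (19.5%) had an unadjusted p below 0.05 against 17.4%. The mice of 4 and of 8 weeks are different animals.

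Col24a1, a fibrillar chain described in developing bone and cornea of the mouse, differed most between the strains. At 4 weeks it stood at 17.8, 22.3 and 14.9 CPM in JR5558, against 2.51, 4.52 and 1.79 CPM in C57BL/6J. At 8 weeks it stood at 20.6, 18.0 and 13.0 CPM in JR5558, against 2.89, 2.21 and 1.92 CPM in C57BL/6J. Every JR5558 retina lay above every C57BL/6J retina at both ages, and the lowest JR5558 value was well clear of the highest C57BL/6J value. These values rest on 1161 counts in JR5558 and 168 in C57BL/6J at 4 weeks, and on 1104 in JR5558 and 138 in C57BL/6J at 8 weeks. The gene was 6.27-fold higher in JR5558 at 4 weeks (log2 fold change 2.65 ± 0.26 SE, 95% interval 2.09 to 3.20, adjusted p = 1.73e-06) and 7.29-fold higher at 8 weeks (2.87 ± 0.27, 2.30 to 3.43, adjusted p = 9.70e-07, edgeR's quasi-likelihood test with Benjamini-Hochberg adjustment). The difference did not pass as changed between ages (0.22 ± 0.38, interval -0.58 to 1.01).

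Col24a1 passed at both ages in each of the 15 alternatives, including those that took pigment epithelium or mesenchymal marker scores into the fit. The log2 fold change ran from 2.38 to 3.84 at 4 weeks and from 2.73 to 3.64 at 8 weeks over these. Within 1 Mb of the gene on chromosome 3, 20 other genes were tested. Of these, 1 was higher and 2 lower in JR5558 at 4 weeks, against 3.27% and 2.9% of all genes. At 8 weeks 0 passed by edgeR's test, against 5.18% of all genes either way. The lncRNA genes that overlap Col24a1 in the table (9530034A14Rik and D530037P16Rik) had 0 counts. The other 10 fibrillar chains did not pass in either strain comparison.

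**Figure D2:**
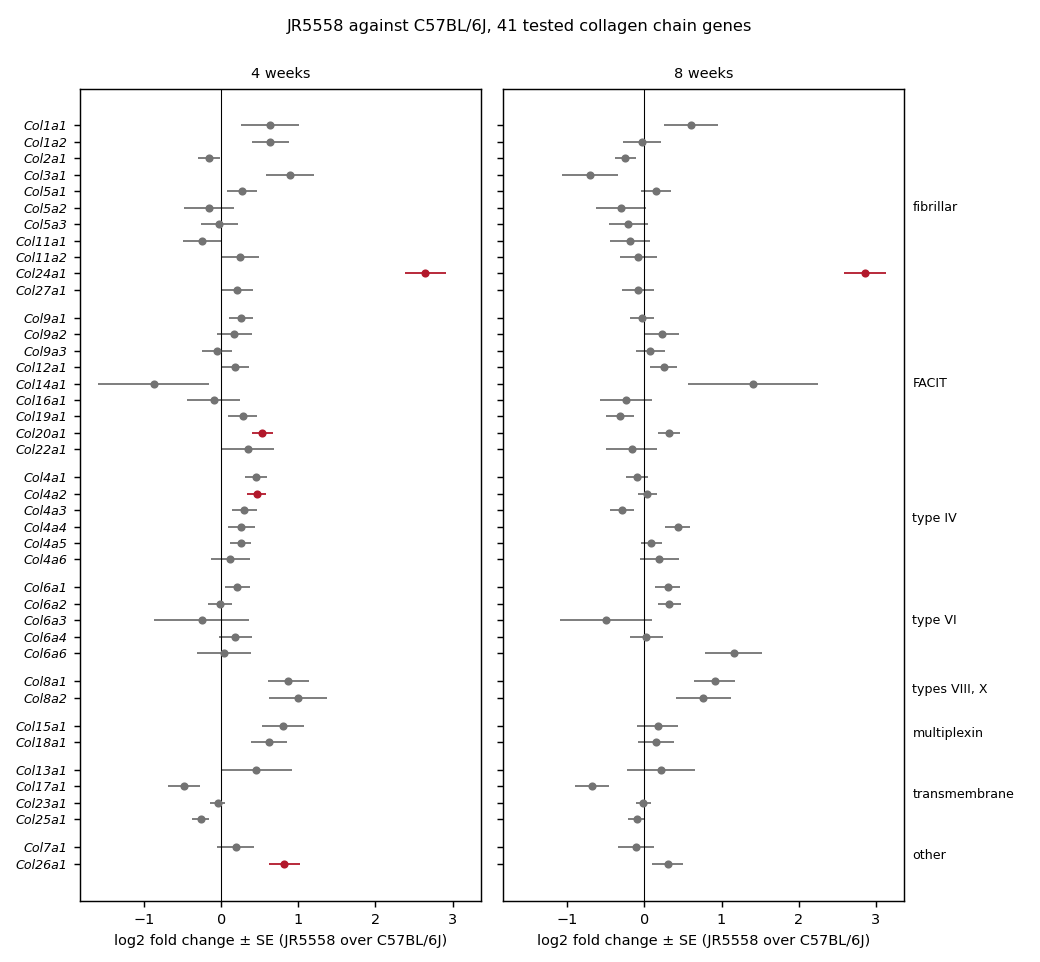
Log2 fold change ± SE of JR5558 over C57BL/6J for the 41 tested collagen genes, grouped by structural class, at 4 weeks (left) and 8 weeks (right); red marks passed the threshold. Col24a1 stands apart at 2.65 and 2.87, and most other members lie within 1 of 0.

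Among the remaining fibrillar chains, Col2a1 of cartilage and vitreous had the highest FPKM mean (9.15). It stood at 69.5, 87.7 and 68.7 CPM in JR5558 against 83.1, 102 and 67.5 CPM in C57BL/6J at 4 weeks, and at 86.2, 92.6 and 69.4 CPM in JR5558 against 112, 88.0 and 95.1 CPM in C57BL/6J at 8 weeks. The groups overlapped at 4 weeks and at 8 weeks, with log2 fold changes of -0.16 ± 0.14 and -0.25 ± 0.14 (adjusted p = 0.593 and 0.392). Col1a2 of type I stood above C57BL/6J without overlap at 4 weeks (0.63 ± 0.24, adjusted p = 0.138) and not at 8 weeks (-0.03 ± 0.24). Col1a1, its partner, had 0.63 ± 0.37 at 4 weeks and 0.60 ± 0.35 at 8 weeks (adjusted p = 0.387 and 0.414).

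Col4a2 and Col4a1, the chains of the ordinary basement membrane network, had similar levels and differences. At 4 weeks Col4a2 stood at 45.1, 54.1 and 50.2 CPM in JR5558 against 35.6, 43.5 and 29.7 CPM in C57BL/6J. Col4a1 stood at 53.9, 62.1 and 56.5 CPM in JR5558 against 38.1, 53.0 and 35.04 CPM in C57BL/6J. Neither gene overlapped between the strains, but the highest C57BL/6J library, replicate 2, came close to the lowest JR5558 library in both. Col4a2 was higher by 0.46 ± 0.13 on the log2 scale (adjusted p = 0.0344), and Col4a1 had 0.45 ± 0.14 and did not pass (adjusted p = 0.0642). At 8 weeks the log2 fold changes were 0.04 ± 0.13 (interval -0.23 to 0.30) for Col4a2 and -0.09 ± 0.14 (-0.39 to 0.20) for Col4a1, and the groups overlapped.

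The Col4a2 call at 4 weeks was lost without JR5558 replicate 2 (adjusted p = 0.126) or 3 (0.0656), without C57BL/6J replicate 1 (0.0688) or 3 (0.109), with only the 6 libraries compared (0.123) and with the mesenchymal score in the model (0.0752). Col4a1 passed at 4 weeks in 3 of the alternatives, at 0.45 to 0.64, among them DESeq2 (adjusted p = 0.0279). The ratio of the Col4a1 to the Col4a2 FPKM was 1.03 ± 0.0306 in JR5558 and 1.03 ± 0.0682 in C57BL/6J at 4 weeks, and 0.897 ± 0.131 in JR5558 and 0.967 ± 0.156 in C57BL/6J at 8 weeks. Both genes overlap each other's first bases on opposite strands, and whether the counting used strand is not given. None of the other 4 type IV chains, Col4a3 to Col4a6, passed in a strain comparison. In the same 4-week comparison 2 of 10 endothelial markers and 1 of 9 pericyte and smooth muscle markers were higher in JR5558, against 3.27% of all genes. The endothelial sums were 375 to 389 CPM in JR5558 against 253 to 285 CPM in C57BL/6J. The endothelial list as a whole was split, with 5 markers above 0 and 5 below and a median log2 fold change of 0.03, and its mean log2 CPM was 3.57 to 3.67 in JR5558 against 3.43 to 3.61 in C57BL/6J. The pericyte list had 7 above 0 and 2 below. Their part in the type IV difference was not tested.

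Col20a1, a FACIT chain first described in chick tissues, stood at 46.6, 58.7 and 47.0 CPM in JR5558 against 35.8, 40.6 and 28.7 CPM in C57BL/6J at 4 weeks. At 8 weeks it stood at 49.5, 48.2 and 40.98 CPM in JR5558 against 43.98, 32.5 and 34.5 CPM in C57BL/6J. The strains did not overlap at 4 weeks and overlapped at 8 weeks. Its log2 fold change was 0.53 ± 0.14 at 4 weeks (adjusted p = 0.0231) and 0.32 ± 0.14 at 8 weeks (adjusted p = 0.224). The 4-week call was lost without JR5558 replicate 2 (adjusted p = 0.117), without C57BL/6J replicate 3 (0.0770), with only the groups compared (0.0693) and with the pigment epithelium (0.206) or mesenchymal score (0.0625) in the model. The pigment epithelium score at 4 weeks was 3.88 to 4.25 in JR5558 against 2.30 to 3.15 in C57BL/6J. A strain comparison with this score in the model cannot tell the score well apart from strain, here and for the genes below. A lncRNA gene on the same strand, 9230112E08Rik, overlaps Col20a1 and had 21.2% as many counts, so reads could have been split between them.

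Col26a1, a chain found in mouse testis and ovary, stood at 7.96, 9.30 and 7.86 CPM in JR5558 against 6.35, 4.46 and 3.48 CPM in C57BL/6J at 4 weeks. At 8 weeks it stood at 5.93, 8.25 and 7.34 CPM in JR5558 against 6.12, 5.75 and 5.61 CPM in C57BL/6J. The strains were separate at 4 weeks and 1 JR5558 library lay among C57BL/6J at 8 weeks. On the log2 scale the fold change was 0.82 ± 0.20 at 4 weeks (adjusted p = 0.0191) and 0.30 ± 0.20 at 8 weeks (adjusted p = 0.493). The call was lost without JR5558 replicate 2 (adjusted p = 0.0722), without C57BL/6J replicate 2 (0.0771) or 3 (0.0745), with only the groups compared (0.0937) and with pigment epithelium marker levels in the model (0.560). The strains do not overlap in those marker levels, so the last of these fits cannot tell them well apart from strain. Within 1 Mb of Col26a1 on chromosome 5, 62 other genes were tested. In JR5558, 2 of them were higher and 0 lower at 4 weeks (Gnb2 and Pcolce), and 1 was higher and 0 lower at 8 weeks (Pcolce). All genes gave 3.27% higher at 4 weeks and 2.54% at 8 weeks. Pcolce is described with the processing genes.

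**Figure D3:**
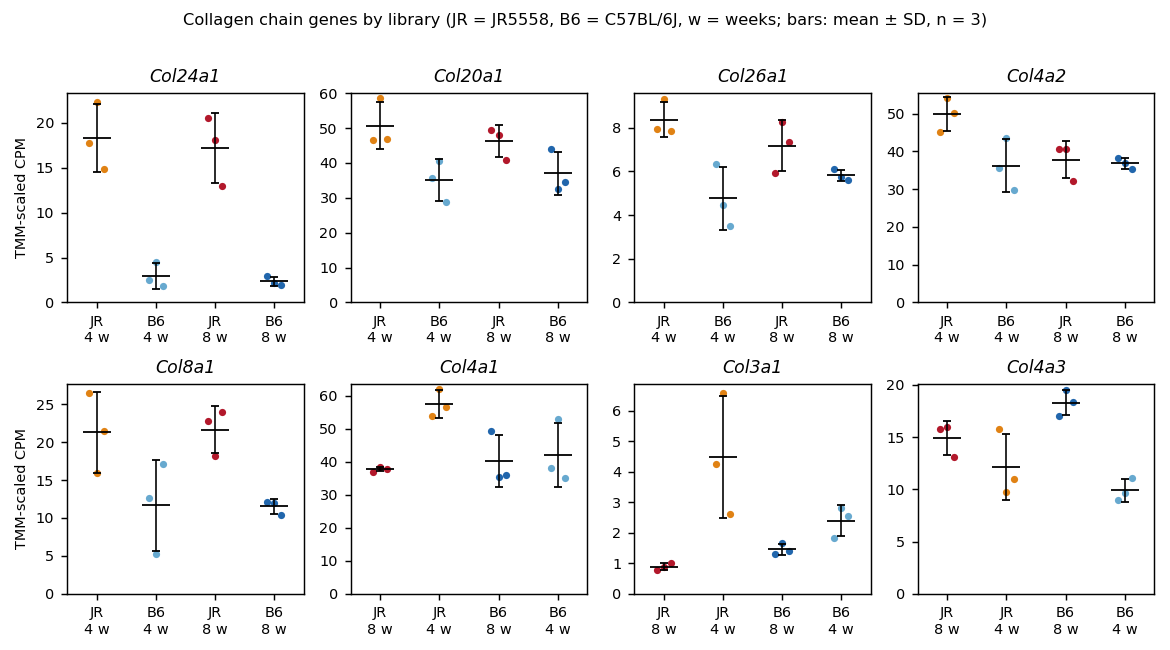
TMM-scaled CPM of 8 collagen genes in each library, with the mean ± SD of each group (n = 3); the panels of Col24a1, Col20a1, Col26a1, Col4a2 and Col8a1 set JR5558 beside C57BL/6J at each age, and those of Col4a1, Col3a1 and Col4a3 set 8 weeks beside 4 weeks in each strain. Col24a1 keeps the strains apart at both ages, and Col3a1 is lowest in JR5558 at 8 weeks (0.777 to 1.00 CPM).

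The short-chain network genes Col8a1 and Col8a2, whose products form the lattice of Descemet's membrane and occur in vessel walls, did not pass. Col8a1 stood at 26.6, 15.9 and 21.5 CPM in JR5558 against 12.6, 5.21 and 17.1 CPM in C57BL/6J at 4 weeks, and at 22.8, 18.2 and 24.02 CPM in JR5558 against 12.1, 12.0 and 10.4 CPM in C57BL/6J at 8 weeks. Col8a2 stood at 13.0, 7.48 and 14.0 CPM in JR5558 against 9.19, 1.65 and 6.54 CPM in C57BL/6J at 4 weeks, and at 17.1, 14.0 and 21.6 CPM in JR5558 against 14.4, 9.29 and 7.27 CPM in C57BL/6J at 8 weeks. Only Col8a1 at 8 weeks kept the strains apart. The log2 fold changes of Col8a1 were 0.87 ± 0.27 and 0.91 ± 0.27 at 4 and 8 weeks (adjusted p = 0.0654 and 0.0588), and those of Col8a2 were 0.99 ± 0.38 and 0.76 ± 0.36 (adjusted p = 0.144 and 0.278). The authors' deposited table gives Col8a1 and Col8a2 adjusted p-values of 0.566 and 0.689 at 4 weeks and of 2.50e-08 and 0.00396 at 8 weeks.

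Of the multiplexins, whose ends are cut into endostatin-like fragments, neither passed. Col18a1 stood at 101, 103 and 106 CPM in JR5558 against 95.3, 73.7 and 33.9 CPM in C57BL/6J at 4 weeks, and at 79.9, 124 and 79.3 CPM in JR5558 against 88.2, 76.9 and 89.6 CPM in C57BL/6J at 8 weeks. C57BL/6J replicate 3 of 4 weeks stood far below the other 11 libraries. The log2 fold changes were 0.62 ± 0.24 and 0.15 ± 0.23 for Col18a1, and 0.80 ± 0.28 and 0.17 ± 0.27 for Col15a1 of microvessel walls (adjusted p from 0.103 to 0.808). Slc19a1, on the other strand, overlaps Col18a1 and had 39.3% as many counts.

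Of the 4 transmembrane chains 0 passed, and their median log2 fold changes were -0.16 at 4 weeks and -0.06 at 8 weeks. Col23a1, the most abundant, stood at 95.9, 97.5 and 89.4 CPM in JR5558 against 104, 105 and 82.4 CPM in C57BL/6J at 4 weeks, and at 96.3, 99.2 and 87.5 CPM in JR5558 against 106, 92.1 and 87.7 CPM in C57BL/6J at 8 weeks. Its log2 fold changes were -0.04 ± 0.10 (interval -0.25 to 0.16) and -0.01 ± 0.10 (-0.22 to 0.19), the narrowest intervals of the members. Col17a1, the hemidesmosome chain, had -0.48 ± 0.21 and -0.68 ± 0.22 (adjusted p = 0.208 and 0.0886), and Col25a1, known from amyloid plaques, had -0.27 ± 0.11 and -0.10 ± 0.11 (adjusted p = 0.189 and 0.715). The groups did not overlap for Col25a1 at 4 weeks and for Col17a1 at 8 weeks.

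Type VI chains, which form beaded filaments next to basement membranes, did not pass either. Col6a1 stood at 80.9, 114 and 101 CPM in JR5558 against 75.7, 106 and 73.6 CPM in C57BL/6J at 4 weeks, and at 105, 92.4 and 74.0 CPM in JR5558 against 91.3, 65.6 and 63.1 CPM in C57BL/6J at 8 weeks, with overlap at both ages. Its log2 fold changes were 0.21 ± 0.16 and 0.30 ± 0.16 (adjusted p = 0.546 and 0.369). Col6a6 had 1.16 ± 0.37 at 8 weeks (adjusted p = 0.0828) at 1.77 to 2.57 CPM in JR5558 against 0.608 to 1.31 CPM in C57BL/6J, and 0.04 ± 0.36 at 4 weeks. The FPKM ratio of Col6a1 to Col6a2, which share a heterotrimer with Col6a3, ran from a mean of 11.3 to 14.4 over the 4 groups. Col7a1, the anchoring fibril chain, stood at 24.3, 38.8 and 33.6 CPM in JR5558 against 25.8, 41.9 and 17.4 CPM in C57BL/6J at 4 weeks, and at 36.5, 36.6 and 24.2 CPM in JR5558 against 40.6, 31.5 and 32.5 CPM in C57BL/6J at 8 weeks. Its groups overlapped and its log2 fold changes were 0.18 ± 0.24 and -0.11 ± 0.23.

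The remaining members had no call between the strains. Of the 11 fibrillar chains, 7 had a log2 fold change above 0 at 4 weeks and 3 at 8 weeks. Col11a2 and Col11a1, which nucleate the vitreous and cartilage fibrils, had mean FPKM of 3.79 and 0.969, and Col5a1, a regulator of type I fibrils, had 1.88. Col11a2 had 0.25 ± 0.24 at 4 weeks and -0.08 ± 0.24 at 8 weeks on the log2 scale, and Col5a1 had 0.27 ± 0.19 and 0.15 ± 0.19. Among the FACIT chains, Col9a2 had 0.17 ± 0.22 and 0.22 ± 0.22, and Col9a3 had -0.06 ± 0.19 and 0.08 ± 0.19. Intervals were wide for the low chains, as for Col14a1 with -0.88 ± 0.72 and 1.41 ± 0.84 at 0.0491 to 0.941 CPM over all libraries. All 6 type IV chains had a log2 fold change above 0 at 4 weeks, from 0.12 ± 0.25 for Col4a6 to 0.46 ± 0.13 for Col4a2, and 4 of 6 did at 8 weeks.

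One control library stood out at 4 weeks. C57BL/6J replicate 3 had the lowest CPM of all 12 libraries for 23 of 41 members, and the collagen genes summed to 639 CPM there, against 874 and 977 CPM in replicates 1 and 2. In JR5558 at 4 weeks the sums were 952, 1066 and 952 CPM, with replicate 2 highest of 12 for 14 members. The same C57BL/6J library had the highest lens signal, with a Cryaa level of 62.6 CPM, and the lowest levels of the fibroblast gene Fbln1 (22.4 CPM) and the ciliary body gene Optc (23.4 CPM). Without that library 2 members passed at 4 weeks, Col24a1 and Col8a1, and without JR5558 replicate 2 the same 2 passed.

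In JR5558, 2 of 41 members fell between 4 and 8 weeks and 0 rose, against 0.835% lower, 0.676% higher and 1.51% either way among all genes. They were Col3a1, the type III chain that joins type I in vessel walls and scars, and Col4a1. In 8 members (19.5%) every 8-week library lay below every 4-week library, and in 1 (2.44%) above, where all genes gave 12.2% and 12%. These 8 were Col3a1, Col1a2, Col5a3, Col4a1, Col4a2, Col9a1, Col17a1 and Col25a1, and the other was Col4a4. The log2 fold change lay above 0 for 48.8% of members and 48.5% of all genes, with medians of -0.00 and -0.01. At an unadjusted p below 0.05 there were 8 members (19.5%), against 16.9% of all genes. Since the 4-week JR5558 libraries carry Y-linked RNA and the 8-week ones do not, sex and age cannot be told apart here.

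Col3a1 stood at 0.777, 0.887 and 1.00 CPM at 8 weeks against 4.25, 6.59 and 2.60 CPM at 4 weeks in JR5558. The 3 libraries of 8 weeks lie close together below all others of the series, and those of 4 weeks spread widely. The values rest on 57 counts at 8 weeks and 282 at 4 weeks. Col3a1 had a log2 fold change of -2.32 ± 0.34 (95% interval -3.04 to -1.60, adjusted p = 0.00132), a call that held in each of the 15 alternatives with values from -2.59 to -1.94. In C57BL/6J it stood at 1.31, 1.66 and 1.39 CPM at 8 weeks against 1.84, 2.82 and 2.54 CPM at 4 weeks, again with no overlap (-0.73 ± 0.34, adjusted p = 0.331). The difference between the 2 age effects, which equals the change of the strain effect, was -1.60 ± 0.48 and did not pass (adjusted p = 0.419).

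Between the strains Col3a1 had 0.89 ± 0.31 at 4 weeks (adjusted p = 0.110) and -0.70 ± 0.36 at 8 weeks (adjusted p = 0.339), with no overlap at 8 weeks. Of the fibroblast markers, 0 of 10 tested passed with age in JR5558, the list's sums were 166 to 233 CPM at 8 weeks and 157 to 221 CPM at 4 weeks, Kera was at 0 in every library and Dcn, Lum and Dpt did not exceed 0.774 CPM. Of 9 pericyte and smooth muscle markers 3 fell, Abcc9 (-1.20 ± 0.22), Rgs5 (-0.60 ± 0.13) and Pdgfrb (-0.48 ± 0.11), where 0.835% of all genes fell. The list sums were 112 to 122 CPM at 8 weeks against 149 to 187 CPM at 4 weeks. Of 10 endothelial markers 1 fell, Pecam1 (-0.56 ± 0.12), against the same 0.835% of all genes. Log2 fold changes lay below 0 for 9 of these markers and above 0 for 1, with a median of -0.31. In 6 of them every 8-week library lay below every 4-week library, where all genes gave 12.2%. The endothelial sums were 330 to 343 CPM at 8 weeks against 375 to 389 CPM at 4 weeks. Red blood cell genes summed to 20.1 to 21.5 CPM at 8 weeks against 43.6 to 59.5 CPM at 4 weeks. Optc of the ciliary body stood at 32.0, 47.3 and 33.9 CPM at 8 weeks against 95.6, 84.7 and 54.9 CPM at 4 weeks. The part of these cells in the fall of Col3a1 and Col4a1 was not tested.

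Col4a1 stood at 37.0, 38.4 and 37.9 CPM at 8 weeks against 53.9, 62.1 and 56.5 CPM at 4 weeks in JR5558. The age groups were well separated, with a very tight group at 8 weeks. Col4a1 fell by 0.60 ± 0.14 on the log2 scale (adjusted p = 0.0340), and Col4a2 had -0.39 ± 0.12 and did not pass (adjusted p = 0.114). In C57BL/6J Col4a1 stood at 49.4, 35.5 and 36.0 CPM at 8 weeks against 38.1, 53.0 and 35.04 CPM at 4 weeks, with overlap (-0.06 ± 0.14, interval -0.35 to 0.24). The Col4a1 call in JR5558 was lost without 4-week replicate 1 (adjusted p = 0.0550) or 2 (0.138) and without 8-week replicate 1 (0.107), 2 (0.111) or 3 (0.164).

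Col9a1, a chain of vitreous type IX collagen, stood at 63.5, 59.9 and 56.6 CPM at 8 weeks against 89.2, 96.4 and 87.6 CPM at 4 weeks in JR5558, and at 61.5, 62.4 and 60.0 CPM at 8 weeks against 91.8, 88.8 and 48.0 CPM at 4 weeks in C57BL/6J. The age groups were separate in JR5558, and in C57BL/6J they overlapped through 4-week replicate 3 alone. The log2 fold changes were -0.60 ± 0.16 in JR5558 (adjusted p = 0.0592) and -0.31 ± 0.16 in C57BL/6J (adjusted p = 0.375). In JR5558 the gene passed in 6 of the 15 alternatives, at -0.62 to -0.57, among them DESeq2 (adjusted p = 0.00844) and the fit of only the groups compared (0.00181). Without C57BL/6J 4-week replicate 3 the C57BL/6J value was -0.56 and passed (adjusted p = 0.00179). The FPKM ratio of Col9a1 to Col9a2, a chain of the same heterotrimer, was 1.57 ± 0.168 at 8 weeks against 2.61 ± 0.127 at 4 weeks in JR5558, and 1.88 ± 0.163 at 8 weeks against 2.60 ± 0.512 at 4 weeks in C57BL/6J. The ratio of Col9a3 to Col9a2 was 0.840 ± 0.0566 at 8 weeks against 0.838 ± 0.222 at 4 weeks in JR5558.

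In C57BL/6J, 1 of 41 members, Col4a3, rose between 4 and 8 weeks and 0 fell, against 0.202% higher, 0.229% lower and 0.431% either way among all genes. Log2 fold changes lay above 0 for 53.7% of members and 50.1% of all genes, and 8 members (19.5%) had an unadjusted p below 0.05 against 14.4%. Col4a3 codes a chain of the α3α4α5 network of the kidney filter and the eye. It stood at 17.0, 19.5 and 18.4 CPM at 8 weeks against 8.97, 9.62 and 11.1 CPM at 4 weeks. No library overlapped, and the log2 fold change was 0.89 ± 0.16 (95% interval 0.54 to 1.23, adjusted p = 0.0188). In JR5558 it stood at 15.8, 15.97 and 13.1 CPM at 8 weeks against 15.8, 9.72 and 11.0 CPM at 4 weeks, where replicate 1 of 4 weeks reached the 8-week values (0.29 ± 0.16, adjusted p = 0.373). The 2 age effects differed by -0.59 ± 0.23 and that difference did not pass (adjusted p = 0.567). The call was lost without 4-week replicate 2 (adjusted p = 0.0652), without 8-week replicate 2 (0.150) or 3 (0.0774), and with the pigment epithelium (0.114) or mesenchymal (0.0791) score in the model.

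Its network partner Col4a4 had 0.53 ± 0.17 in JR5558 and 0.36 ± 0.17 in C57BL/6J with age (adjusted p = 0.114 and 0.348). The FPKM ratio of Col4a3 to Col4a4 was 1.12 ± 0.0739 at 8 weeks against 1.31 ± 0.152 at 4 weeks in JR5558, and 1.93 ± 0.501 at 8 weeks against 1.30 ± 0.217 at 4 weeks in C57BL/6J. In 3 members (7.32%) every 8-week C57BL/6J library lay above every 4-week library, Col4a3, Col15a1 and Col19a1, and in 4 (9.76%) below, Col3a1, Col14a1, Col17a1 and Col25a1, where all genes gave 8.98% and 10%. Col3a1, Col17a1 and Col25a1 were thus lower without overlap at 8 weeks in both strains. The share of all genes that were so in both strains was not counted, and in JR5558 sex cannot be told apart from age. Col17a1 had -0.67 ± 0.22 in JR5558 and -0.47 ± 0.21 in C57BL/6J, and Col25a1 had -0.22 ± 0.11 in JR5558 and -0.38 ± 0.11 in C57BL/6J; none of these 4 passed (adjusted p from 0.126 to 0.344).

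**Figure D4:**
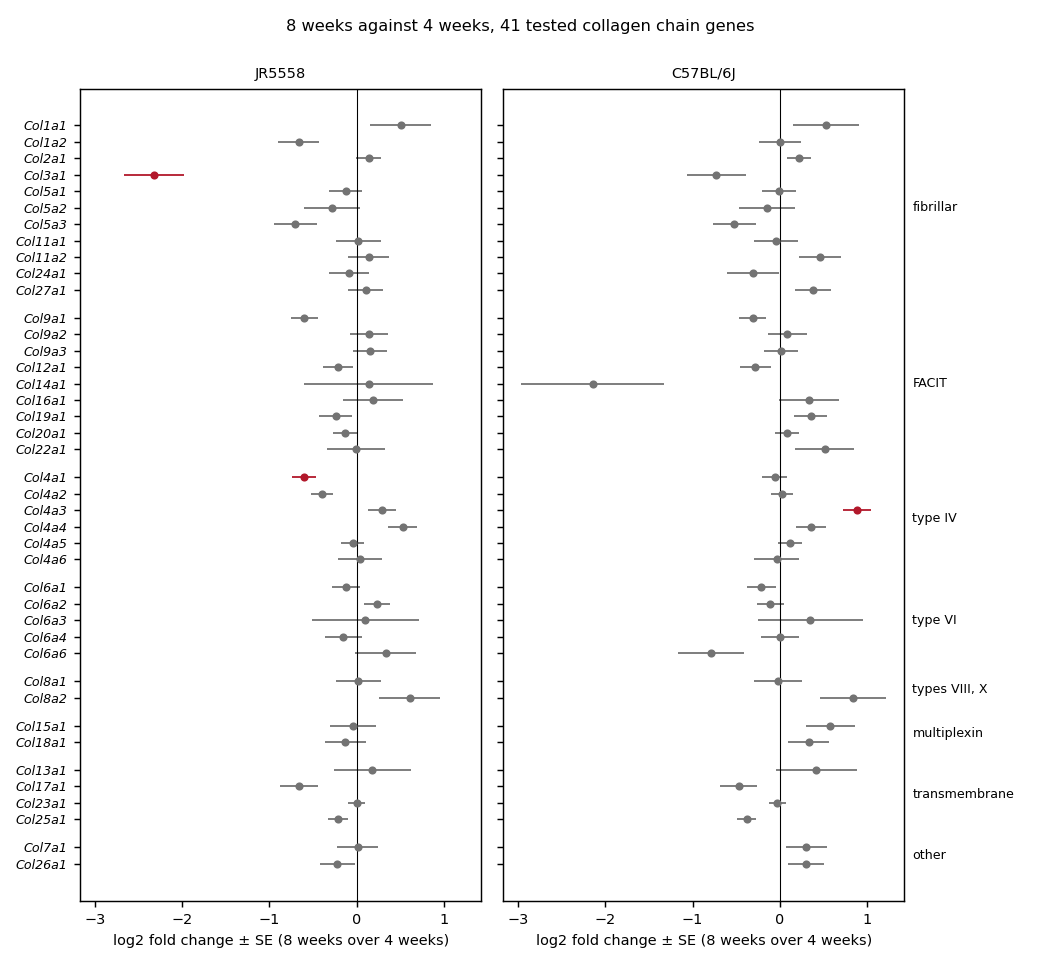
Log2 fold change ± SE of 8 weeks over 4 weeks for the 41 tested collagen genes, grouped by structural class, in JR5558 (left) and C57BL/6J (right); red marks passed the threshold. Col3a1 at -2.32 and Col4a1 at -0.60 passed in JR5558, Col4a3 at 0.89 passed in C57BL/6J, and Col14a1 in C57BL/6J (-2.15) has a wide error at under 1 CPM.

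The strain effect did not pass as different between ages for any of the 41 members by edgeR's quasi-likelihood test, against 0.0545% higher, 0.0382% lower and 0.0927% either way among all genes. At an unadjusted p below 0.05 there were 6 members, where all genes gave 7.19%, and DESeq2 called 0. The strain effect at 8 weeks minus that at 4 weeks lay below 0 in 27 members and above 0 in 14 (34.1%, against 49.9% of all genes), with a median of -0.16 against -0.00 over all genes. Values were -0.55 ± 0.20 for Col4a1, -0.42 ± 0.18 for Col4a2, -0.60 ± 0.26 for Col19a1 and 1.13 ± 0.51 for Col6a6 (adjusted p from 0.514 to 0.669). The calls at 4 weeks for Col20a1, Col26a1 and Col4a2 are therefore not shown to differ from 8 weeks.

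Of the genes that hydroxylate and fold collagen, 0 of 20 rose and 2 fell in JR5558 at 4 weeks, where all genes gave 3.27% and 2.9%, and 0 passed at 8 weeks or with age by edgeR. P4ha1 codes a catalytic subunit of prolyl 4-hydroxylase. It stood at 68.7, 54.2 and 64.6 CPM in JR5558 against 81.4, 79.1 and 85.0 CPM in C57BL/6J at 4 weeks. At 8 weeks it stood at 74.0, 74.2 and 79.9 CPM in JR5558 against 64.7, 67.1 and 68.1 CPM in C57BL/6J. JR5558 lay below C57BL/6J without overlap at 4 weeks and above it at 8 weeks, where the difference did not pass. P4ha1 fell by 0.39 ± 0.09 on the log2 scale at 4 weeks (adjusted p = 0.00929), lost without JR5558 replicate 2, with only the groups compared and with the pigment epithelium score (adjusted p up to 0.228). Plod2, a lysyl hydroxylase, had -0.51 ± 0.14 (adjusted p = 0.0320) and passed in 8 of the 15 alternatives.

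Among 12 tested genes of procollagen trimming and crosslinking, 1 rose and 0 fell in JR5558 at 4 weeks and 1 rose and 1 fell at 8 weeks. Either way, all genes gave 6.16% at 4 weeks and 5.18% at 8 weeks, so with 12 genes these counts lie near the share of all genes. Pcolce, which speeds removal of the C-propeptide of fibrillar procollagens, stood at 46.0, 22.1 and 27.0 CPM in JR5558 against 11.3, 10.4 and 7.53 CPM in C57BL/6J at 4 weeks, and at 39.4, 39.2 and 39.1 CPM in JR5558 against 12.6, 15.4 and 12.0 CPM in C57BL/6J at 8 weeks. The strains were far apart at both ages, with log2 fold changes of 1.72 ± 0.21 (adjusted p = 2.50e-05) and 1.56 ± 0.20 (adjusted p = 5.67e-05). Of the 15 alternatives at each age, these calls were lost in the one that took pigment epithelium marker levels into the model (adjusted p = 0.240 and 0.0541), and the strains do not overlap in those markers' sums at either age. Over all 15 the log2 fold change of Pcolce stayed at 1.34 or more at 4 weeks and 1.38 or more at 8 weeks. Adamts3, an N-propeptide protease, fell at 8 weeks (-0.47 ± 0.13, adjusted p = 0.0365) and passed in 7 of the 15 alternatives. Its call was lost with the pigment epithelium or the mesenchymal score and without any 1 of the 6 libraries. The crosslinking enzymes Lox and its relatives were among the members of this list that did not pass.

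Of 9 tested collagen receptors, 0 passed between strains, and 1 fell with age in JR5558, against 0.835% of all genes. Itga1, the α1 subunit of the integrin that binds type IV collagen, stood at 2.43, 2.75 and 2.62 CPM at 8 weeks against 5.90, 5.02 and 6.14 CPM at 4 weeks in JR5558, with no overlap (-1.13 ± 0.21, adjusted p = 0.00850). That call was lost without 8-week replicate 3 (adjusted p = 0.0609). Of 12 tested degrading enzymes and inhibitors, Mmp14 was higher in JR5558 at 4 weeks (0.42 ± 0.12, adjusted p = 0.0420), the only one of them, where all genes gave 3.27%. With age in JR5558, 2 fell and 0 rose, against 0.835% and 0.676% of all genes: Mmp2, a gelatinase (-1.07 ± 0.20, adjusted p = 0.00964), and Mmp14, the membrane protease that activates it (-0.55 ± 0.12, adjusted p = 0.0226). Mmp14 passed in 6 of 15 alternatives at 4 weeks and 10 of 15 with age, and the Mmp2 call was lost without 8-week replicate 1 or 3.

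Of 15 tested collagen-binding partners, 3 rose and 0 fell in JR5558 at 4 weeks, Thbs1 (1.96 ± 0.24), Tgfbi (1.55 ± 0.33) and Sparc (0.33 ± 0.07), where all genes gave 3.27% higher and 2.9% lower. At 8 weeks Thbs1 rose (1.63 ± 0.25) and Prelp fell (-0.43 ± 0.11), against 2.54% and 2.63% of all genes. With the pigment epithelium score in the model the 4-week calls of Thbs1 (adjusted p = 0.629) and Tgfbi (0.355) and the 8-week call of Thbs1 (0.437) were lost. The lowest log2 fold change of Thbs1 over the 15 alternatives was 0.57 at 4 weeks and 0.62 at 8 weeks. The 4-week Sparc call was lost with that score and with only the groups compared (adjusted p up to 0.314), and the Prelp call passed in 7 of 15 alternatives, being lost with either score and without any 1 of the 6 libraries.

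With age, Sparc, the collagen-binding chaperone of basement membranes, stood at 291, 279 and 307 CPM at 8 weeks against 463, 439 and 438 CPM at 4 weeks in JR5558, and at 243, 265 and 273 CPM at 8 weeks against 370, 365 and 333 CPM at 4 weeks in C57BL/6J. The age groups did not overlap in either strain, and Sparc fell in both, by 0.61 ± 0.07 on the log2 scale in JR5558 (adjusted p = 9.41e-05) and by 0.45 ± 0.07 in C57BL/6J (adjusted p = 0.00504). Of the partners, 2 fell and 0 rose with age in JR5558, against 0.835% and 0.676% of all genes, and Sparc alone fell in C57BL/6J, against 0.229%. Nid1, the nidogen that links type IV collagen to laminin, fell in JR5558 (-0.999 ± 0.24, adjusted p = 0.0384) and passed in 10 of 15 alternatives. Sparc passed in all 15 alternatives in JR5558 and in 13 in C57BL/6J. In all 5 lists 0 genes passed for a change of the strain effect between ages.

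The authors' deposited table of comparisons, whose test is not stated, calls 2 members higher in JR5558 at 4 weeks (Col20a1 and Col24a1) and 4 at 8 weeks (Col20a1, Col8a1, Col8a2 and Col24a1) at an adjusted p below 0.05. With age in JR5558 the same table calls 1 higher (Col4a4) and 5 lower (Col9a1, Col4a1, Col4a2, Col1a2 and Col3a1). In C57BL/6J it calls 1 higher with age (Col4a3). The share of all genes that the authors' deposited table calls was not counted, so these counts cannot be set against it. Col20a1 at 4 weeks, Col24a1 at both ages, Col3a1 and Col4a1 with age in JR5558 and Col4a3 with age in C57BL/6J were called in the same direction in the authors' deposited table and by edgeR. The edgeR calls of Col4a2 and Col26a1 at 4 weeks were not made in the authors' deposited table (adjusted p = 0.0587 each). The deposited log2 fold changes of Col24a1 were 2.65 at 4 weeks and 2.87 at 8 weeks, and that of Col3a1 with age in JR5558 was -2.33.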

How the data were processed

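The 12 libraries are paired-end, from poly-A RNA of whole retina. The submitters' processing notes name fastp, HISAT2 2.0.5, featureCounts 1.5.0-p3 and mm10; whether counting used strand is not given in the sources used here. The deposited counts are whole numbers per gene, per the file headers, and were analysed as deposited. FPKM, given by the authors beside them, served for levels between genes. The authors' deposited log2 fold changes and adjusted p-values come from an unstated test. Of the 44 members, 3 have the same start and end as in GENCODE M21 (GRCm38), so the build of the table's positions is not settled and none are printed.

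Software was R 4.3.3 with edgeR 4.0.16, DESeq2 1.42.0 and limma 3.58.1. With group-wise filterByExpr (a count of at least 10 and a total of at least 15), 18334 genes were kept. After TMM scaling, edgeR's quasi-likelihood test (both directions) was run for 5 contrasts on 1 fit of all 12 libraries with a mean per group. P-values were adjusted by Benjamini-Hochberg over all tested genes, with a threshold of 0.05. Values after ± are SE for log2 fold changes and SD for levels and ratios. Alternatives were RLE scaling, no filter, at least 1 CPM in 3 libraries, DESeq2, only the groups compared, a replicate block, leaving out each library, no genes of X and Y, and scores of pigment epithelium or mesenchymal markers (mean log2 CPM) as a covariate. The scripts were tested on simulated data. The members, gene lists and tests were chosen with earlier results of these data known. Named with values in each library are members past the threshold in any comparison and the highest by FPKM of each class, and members of the gene lists past the threshold; Col8a1, Col9a1, Col4a4 and other members that did not pass were named after their values were seen.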

Additional observations from a re-analysis of the deposited data

How the results depend on the processing

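The 3-mouse groups limit what can be seen: each call of a member other than Col24a1 and Col3a1 was lost in 5 or 6 of 15 alternatives. Low chains such as Col14a1 and Col6a3 rest on few counts. Counting error and mouse-to-mouse spread are not separated.

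Counts of collagen genes past the threshold moved as follows, with the cause not tested. At 4 weeks (4) there were 9 with no filter, 1 with only the groups compared and 2 with the pigment epithelium score, and 2 to 5 when libraries were left out in turn. At 8 weeks (1) there were 4 with no filter, 2 by DESeq2 and 5 with only the groups compared, and 1 in each leave-one-out fit. With age in JR5558 (2) there were 7 with no filter, and 1 to 3 when libraries were left out. In C57BL/6J (1) there were 4 with no filter, 0 with either score, and 0 to 2 when libraries were left out. The change of the strain effect stayed at 0 in all fits run.

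Over all genes at 4 weeks (1130) there were 558 with only the groups compared and 135 with the pigment epithelium score, and 814 to 1162 when libraries were left out. At 8 weeks (949) there were 2183 with only the groups compared, 240 with that score and 538 to 649 in turn. With age in JR5558 (277) there were 854 with no filter, 660 by DESeq2, 544 with only the groups compared and 63 to 689 in turn. In C57BL/6J (79) there were 445, 308 and 22 under those 3 settings, 32 with the pigment epithelium score, 50 with the mesenchymal score and 16 to 125 in turn. For the change of the strain effect (17) there were 96 with no filter, 60 by DESeq2, 9 without X and Y, 10 with the mesenchymal score and 6 to 38 in turn. No call of a collagen gene past the threshold in the fit of all 12 libraries changed direction in an alternative. Direction was not followed over all genes.

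Same-numbered libraries showed no sign of deviating together (18 pairs, r from -0.114 to 0.0867). Pairs with different numbers gave r from -0.0832 to 0.114 (36 pairs). With 3 libraries per group these values cannot exclude that same-numbered libraries were prepared together. With the replicate block 5 collagen genes passed at 4 weeks, 2 at 8 weeks (Col24a1 and Col8a1), 3 with age in JR5558, 1 with age in C57BL/6J and 0 for the change of the strain effect; over all genes 1010, 845, 218, 59 and 12 passed. Settings not mentioned kept the counts within 1.5 times.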
